A study of Mus musculus with 4 samples.

Results

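Cytosolic ribosomal protein genes were taken as every listed symbol made of Rpl or Rps, a number and at most a short suffix, together with Rpsa, Rplp0, Rplp1 and Rplp2. Of the 12408 genes listed in the hearts, 81 met this rule. They were 32 genes of the small 40S subunit, 46 genes of the large 60S subunit and the 3 genes of the 60S stalk. All 81 symbols were found in the annotation, and all but Rpl32l were protein-coding genes. Rpl32l is annotated as a processed pseudogene and matches Rpl32, and it is counted among the 60S genes in the sums, medians and counts given here except those by number of copies.

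The hearts came from 4 C57BL/6 mice, each 3 months old, and RNA was sequenced from the whole heart of 1 mouse per group. Both CT groups had the genotype WW45 flox/flox, and both cKO groups had the same floxed alleles plus alpha-MHC-CRE, a recombinase made from the alpha-myosin heavy chain promoter of cardiomyocytes. WW45, symbol Sav1, encodes a scaffold protein of the Hippo kinase pathway. CT baseline and cKO baseline were hearts without surgery in the labels, and CT TAC and cKO TAC had 4 weeks of transverse aortic constriction (TAC), a narrowing of the aorta that raises the pressure load on the left ventricle. The labels name no sham operation and no mice with Cre alone.

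Ribosomal proteins and ribosomal RNA together form the ribosome: the 40S subunit reads the mRNA, the 60S subunit joins the amino acids, and the acidic stalk of the 60S subunit recruits the translation factors that hydrolyse GTP. Most ribosomal proteins are single components of the ribosome and are made from mRNAs that begin with a terminal oligopyrimidine tract, through which growth signals control their translation. Cardiac growth under pressure load is known for a rise in ribosome content, and striated muscle is known for Rpl3l, a paralogue that takes the place of Rpl3 in the 60S subunit. Ribosomal protein genes also left many processed pseudogenes in the mouse genome, whose sequences differ little from the parent mRNA.

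The libraries held between 1587840 reads (cKO baseline) and 2796547 reads (CT baseline), as recovered from the deposited log2 CPM, in which the reads of a gene are scaled to the size of its library. With 1 mouse per group, each ratio of 2 libraries compares those libraries and carries no p-value. Its 95% interval covers the error of counting alone, in which PCR duplicates are treated as separate molecules. Sav1 stood at 49.3 CPM in CT baseline, 39.8 in cKO baseline, 35.4 in CT TAC and 46.2 in cKO TAC, so the library labelled cKO TAC was not below the library labelled CT TAC. The deleted exons are not given in the labels and the values cover the whole gene and the whole heart, so Sav1 does not check the genotype labels. All 12 cardiomyocyte markers were listed and took 14%, 14.6%, 13.0% and 12% of the reads of CT baseline, CT TAC, cKO baseline and cKO TAC.

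The annotated starts of 61 of the 81 members were available as RefSeq windows of build GRCm38.p6, each from 250 bases before to 50 bases after a start. A pyrimidine start, meaning a C followed by at least 4 bases that are each C or T and lying within 5 bases of the annotated start, was found in 30 of the 61 (49.2%) and in 21.2% of all 27025 genes with a window. Windows of 30 bases are shown for 5 members with such a start and for 3 with none within 5 bases of the annotated start. Of the 5, Rpl12, Rps10, Rpl35 and Rps27 were higher under TAC in both genotypes, and Rps18 was lower in CT. The start used in these hearts was not measured, so a missing match does not show that the mRNA lacks the tract. Capitals mark the run from the qualifying C nearest to the annotated start, and pyrimidines before that C are in lower case. They lie at chr2:32961702-32961731 (Rpl12, plus strand), chr17:27635225-27635254 (Rps10, minus), chr2:39005112-39005141 (Rpl35, minus), chr3:90213629-90213658 (Rps27, minus), chr17:33955646-33955675 (Rps18, minus), chr9:120127756-120127785 (Rpsa, plus), chr17:33824543-33824572 (Rps28, minus) and chr17:24727816-24727845 (the upstream of the Rpl3l starts, plus).
Rpl12: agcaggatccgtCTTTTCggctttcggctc
Rps10: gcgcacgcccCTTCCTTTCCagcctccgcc
Rpl35: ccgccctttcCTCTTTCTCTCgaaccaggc
Rps27: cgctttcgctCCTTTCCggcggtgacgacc
Rps18: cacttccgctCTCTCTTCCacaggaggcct
Rpsa: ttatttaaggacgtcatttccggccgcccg
Rps28: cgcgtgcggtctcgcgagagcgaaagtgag
Rpl3l: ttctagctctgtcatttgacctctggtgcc

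The ETS motif CCGGAAG, searched on both strands, was in the windows of 24 of the 61 members (39.3%) and of 9.93% of all genes. The other motifs searched on both strands were near or under their share in all genes. CACGTG, an E-box, was in 6 members (9.84% against 8.09%), TATAAA in 8 (13.1% against 15.7%) and GGAATG, the core bound by TEAD factors, in 6 (9.84% against 16.6%). Members with a pyrimidine start had a median log2 ratio of TAC to baseline of 0.50 in CT and 0.28 in cKO (30 genes), and members with a window but no such start had 0.32 and 0.08 (31 genes). A motif match describes the letters of the window and no factor was measured there.

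Ribosomal protein genes held a larger share of the reads in both TAC libraries than in the baseline library of the same genotype. All members together took 1.12% of the reads in CT baseline (Clopper-Pearson 95% interval 1.11 to 1.13) against 1.41% in CT TAC (1.39 to 1.43), and 1.29% in cKO baseline (1.27 to 1.30) against 1.48% in cKO TAC (1.46 to 1.5). In CPM, which carry the library scaling of the files, the summed level was 1.25-fold higher in CT TAC than in CT baseline and 1.14-fold higher in cKO TAC than in cKO baseline. Between genotypes the summed CPM was 1.08-fold higher in cKO baseline than in CT baseline, and 0.981 times as high in cKO TAC as in CT TAC. In whole hearts a change in the cells that make up the tissue and a change in RNA per cell cannot be told apart.

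The summed CPM of the subunits moved by unequal amounts, and the medians over genes did not follow the sums. The median log2 ratio under TAC was 0.51 for 40S and 0.31 for 60S genes in CT, and 0.12 and 0.11 in cKO. A sum is weighted to the most abundant genes. The 40S genes summed to 1.21-fold more CPM under TAC in CT and 1.27-fold more in cKO, while the 60S genes summed to 1.28-fold more in CT and 1.05-fold more in cKO. The summed CPM of the 60S genes was 1.35 times that of the 40S genes in CT baseline against 1.43 times in CT TAC, and 1.44 times in cKO baseline against 1.18 times in cKO TAC. The library of cKO TAC thus had the lowest 60S to 40S ratio of the 4, and Rps24 and Rpsa, both 40S genes, stood at 722 and 516 CPM there. Rps24 holds parts of reads, so its value is uncertain.

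**Figure D1:**
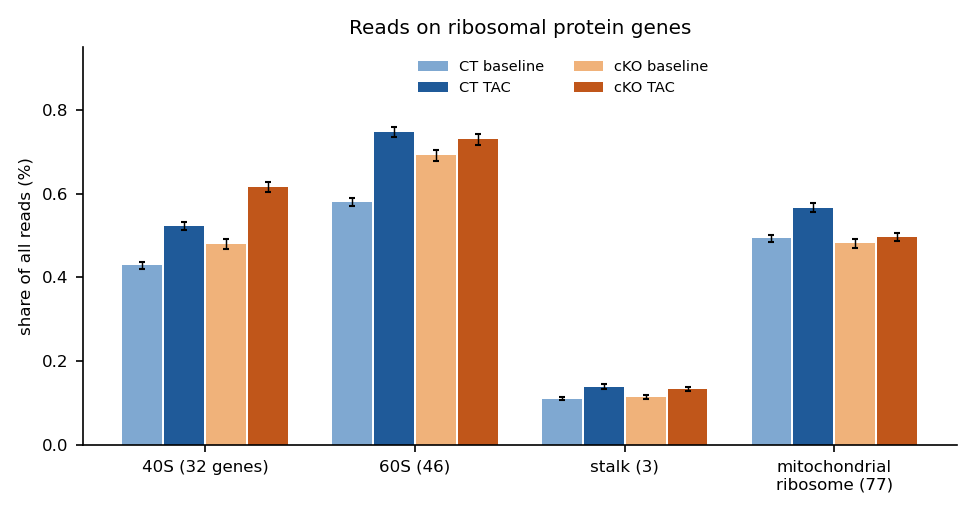
Share of all reads (percent, y axis) held by the 40S, 60S and stalk genes and, for comparison, by the 77 genes of the mitochondrial ribosome, in each of the 4 libraries (colours). Bars are single libraries and error bars are 95% binomial counting intervals. The 40S share was highest in cKO TAC (0.616%) and the 60S share in CT TAC (0.747%).

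Rpl4, which lines the peptide exit tunnel, and Rplp0, which anchors the stalk, were the most abundant members by reads. Together they held 28.9% of member reads in CT baseline against 28.3% in CT TAC, and 27.2% in cKO baseline against 25.8% in cKO TAC. Per kilobase of coding length, Rpl4 was the highest member in all 4 libraries, at 1860, 2280, 1940 and 2060 CPM per kb in the order just given, which all lists of 4 values follow. Rplp0 was among the 3 highest at 1070, 1310, 1010 and 1150 CPM per kb, and the median member lay at 159, 204, 181 and 204. At the low end, Rpl29 lay at 3.86, 2.08, 11.5 and 11.3 CPM per kb and Rps12 at 8.42, 6.30, 9.27 and 2.75. Rpl29 rested on 2 to 10 reads a library and Rps12 on 2 to 9.

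The number of processed copies went with these levels. A search of the annotation found 964 pseudogenes that matched a member's coding sequence at 90% identity or more over at least 80% of its length. They are called processed copies here, although the search did not single out the processed class of pseudogenes. The median member had 8.5 such copies. Over the aligned part, 55 members had a copy at 99% identity or more and 19 had one at 100%. Rpl21 had most copies (76), followed by Rpl7a (74) and Rpl29 (58), and members with no copy found included Rpl3l, Rpl8, Rplp2 and Rps3. In CT baseline the median level was 350 CPM per kb for the 10 members with at most 2 copies, 191 for the 34 with 3 to 9 copies and 98.4 for the 36 with 10 or more. The same order was seen in cKO baseline (403, 206 and 116) and cKO TAC (419, 309 and 92.9), and in CT TAC the first classes lay at 336 and 356 with the last at 76.9. Across 80 members, Spearman's rho of copy number against CPM per kb was between -0.56 and -0.52 in the 4 libraries, a description over genes that share a library. How the authors' counting treated reads that match several places is not given in the sources used here, so the values of members with many copies are uncertain, and whether copies set these levels was not tested.

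**Figure D2:**
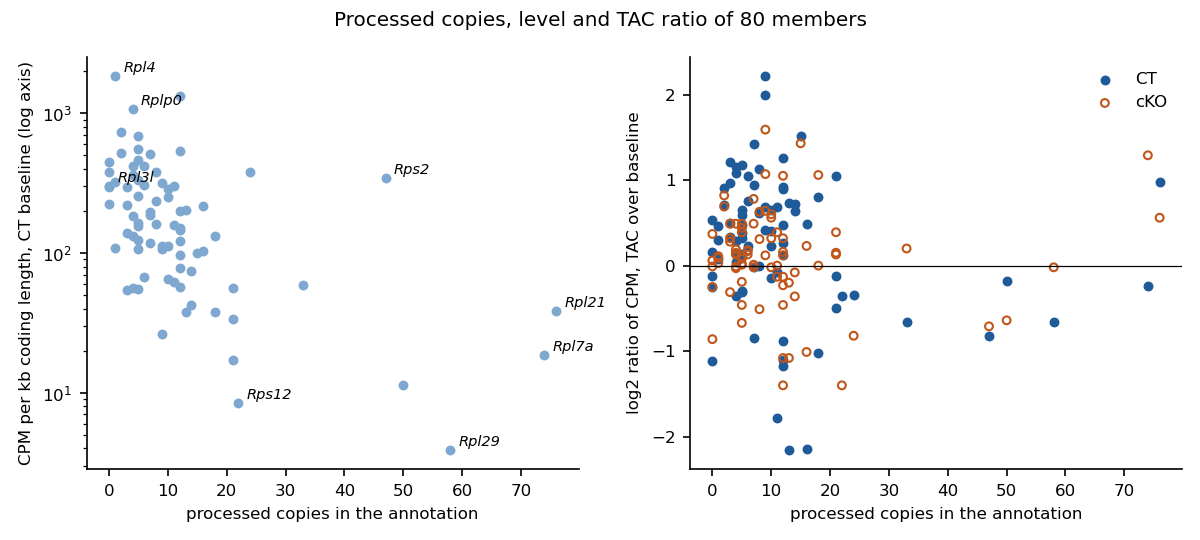
Left, CPM per kb of coding length in CT baseline (y, log axis) against the number of processed copies in the annotation (x) for 80 members. Right, log2 ratio of TAC to baseline in CT (filled) and cKO (open) against the same number. Members with 10 or more copies lie lower on the left, with a median of 98.4 CPM per kb against 350 for those with at most 2.

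Under TAC more members were higher than lower in the CT pair. A gene was called in a pair when its deposited values differed by at least 2-fold and its counting interval excluded 1. In CT TAC against CT baseline, 13 of 81 members (16.0%) were called higher, where 6.06% of all listed genes were, and 7 (8.64%) were called lower, where 4.68% were. The median member had a log2 ratio of 0.33, against 0.01 over all genes, and 54 members (66.7%) lay above 0, against 50.8% of all genes. Counting intervals lay above 1 for 44 members (54.3%, against 16.4% of all genes) and under 1 for 13 (16.0%, against 15.3%). Members are counted more deeply than most genes, with a median of 74.5 CPM against 17.8 over all genes in CT baseline, which makes their intervals narrower.

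By number of processed copies, the classes of members had unequal medians under TAC in CT. Among the 34 members with 3 to 9 copies, 28 (82.4%) lay above 0, against 50.8% of all genes, and the median log2 ratio was 0.49. Of the 34, 9 were called higher (26.5%, against 6.06% of all genes) and none lower (against 4.68%). Their summed CPM was 1.44-fold higher. Among the 36 with 10 or more copies, 18 lay above 0, the median was 0.02, 3 were called higher and 6 lower, and the summed CPM was 0.983 times as high. The 10 with at most 2 copies had a median of 0.23 and a summed CPM 1.21-fold higher. In the cKO pair the medians were 0.07, 0.16 and 0.00 from the fewest copies to the most, and the summed CPM was 1.11-, 1.14- and 1.17-fold higher. The part of the copies in these ratios was not tested.

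In the cKO pair fewer members were called, and fewer of all genes as well. The cKO libraries held fewer reads (1587840 at baseline and 1772153 under TAC, against 2796547 and 2064655 in CT), which widens counting intervals. In cKO TAC against cKO baseline, 7 members (8.64%) were called higher, against 3.71% of all genes, and 4 (4.94%) lower, against 2.83%. The median log2 ratio was 0.12, against 0.00 over all genes, and 52 members (64.2%) lay above 0, against 49.8% of all genes. Intervals lay above 1 for 25 members (30.9%, against 11.2% of all genes) and under 1 for 12 (14.8%, against 10.9%). No libraries are shared between the CT and cKO pairs. Of the 81 members, 43 (53.1%) were higher under TAC in both genotypes, against 31.4% of all genes, 18 (22.2%) were lower in both, against 30.7%, and the other 20 went opposite ways, as did 37.7% of all genes. Intervals excluded 1 in both pairs for 22 members that were higher in both (27.2%, against 5.63% of all genes) and for 6 that were lower in both (7.41%, against 4.90%). The latter were Rpl30, Rpl31, Rpl3l, Rps19, Rps2 and Rps27a, of which only Rpl3l had fewer than 12 copies. The difference between the genotypes' TAC ratios cannot be tested with 1 mouse per group.

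**Figure D3:**
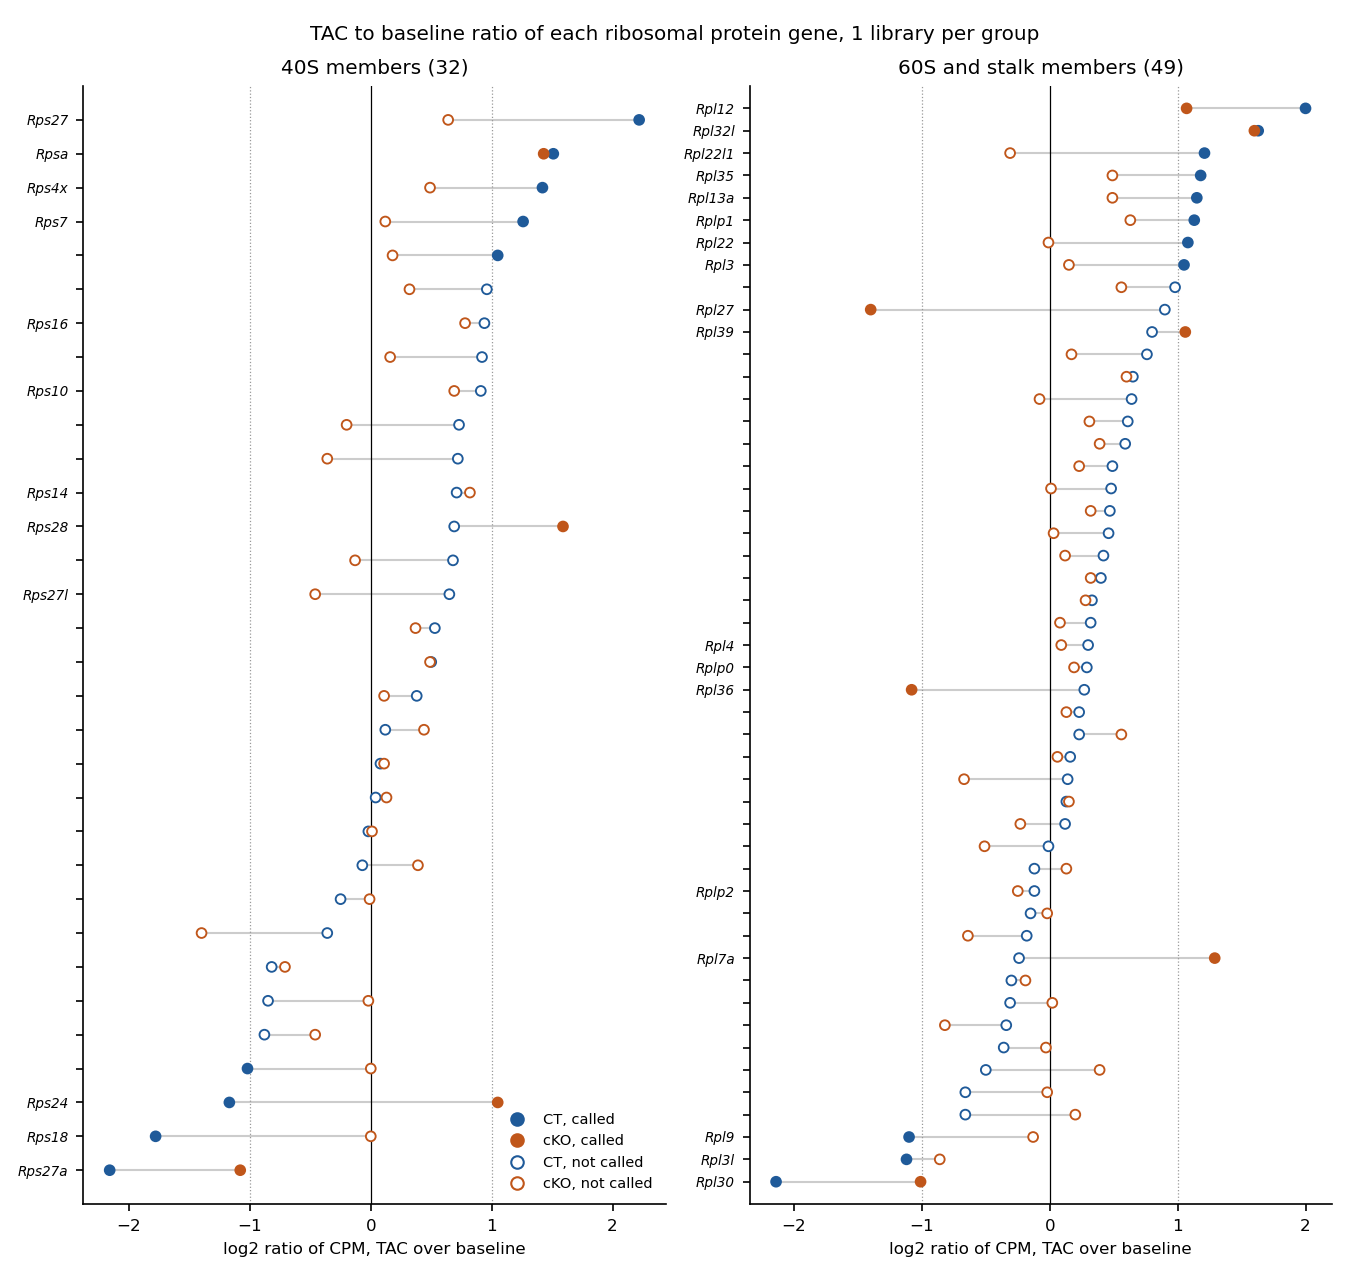
Log2 ratio of TAC to baseline (x) for each of the 32 genes of the 40S subunit (left) and the 49 of the 60S subunit and stalk (right), in CT (blue) and cKO (orange), ordered by the CT value, with names for some of the genes described in the text. Filled points are called, dotted lines mark a 2-fold ratio, and each ratio compares 2 single libraries. Most blue points lie to the right of 0, and the orange and blue points lie farthest apart for Rpl27, Rps24 and Rps18.

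A model over all 4 libraries tested TAC with genotype as an additive term (limma on the deposited log2 CPM, Benjamini-Hochberg adjusted over all 12408 genes). It left 1 residual degree of freedom, and most of the weight in its p-values came from the prior variance fitted over genes (10.1 degrees of freedom), so the spread between mice of a group was not measured. At an adjusted p under 0.05, 7 members rose (8.64%, where 1.3% of all genes did) and 3 fell (3.70%, where 0.524% did). At an unadjusted p under 0.05 there were 33 members (40.7%, against 16.2% of all genes). The prior variance follows the level of a gene, and members stood above most genes (in CT baseline a median of 74.5 CPM against 17.8). The shares of all genes in this model are thus not matched to the members by level. Without the mean-variance trend no member was called, and without the genotype term 1 rose and none fell. Of the 40S genes, Rpsa, Rps10, Rps14, Rps16 and Rps28 rose and Rps27a fell. Of the 60S genes, Rpl12 and Rpl32l rose and Rpl3l and Rpl30 fell.

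Among the small-subunit genes, Rpsa was called higher in all 4 pairs. It encodes a protein of the 40S surface also known as the laminin receptor, and its level was 87.8 CPM in CT baseline against 251 in CT TAC, and 191 in cKO baseline against 516 in cKO TAC. Both TAC libraries were above the baseline library of their genotype, and both cKO libraries were above the CT library of the same state. It was 2.86-fold higher under TAC in CT (interval 2.44 to 3.35) and 2.70-fold higher in cKO (2.37 to 3.08), and in the model it rose by a log2 of 1.47 (SE 0.18, limma adjusted p = 0.0024). Rpsa has 15 processed copies and whole reads in all libraries.

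Rps10, at the mRNA entry side of the 40S subunit, stood at 257 CPM in CT baseline against 483 in CT TAC, and 238 in cKO baseline against 383 in cKO TAC. It rose by a log2 of 0.80 (SE 0.17, limma adjusted p = 0.0471), and it has only 2 processed copies. Rps14, which also has 2 copies and whose loss is known from anaemia with deletion of a part of a human chromosome, had 333, 544, 284 and 501 CPM in the same order of libraries and rose by 0.76 (SE 0.17, limma adjusted p = 0.0479). Rps16, whose tail reaches the P-site tRNA, had 86, 166, 119 and 204 CPM and rose by 0.86 (SE 0.19, limma adjusted p = 0.0471). Rps28, a small protein near the mRNA exit, had 65.6, 106, 34.3 and 104 CPM and rose by 1.14 (SE 0.25, limma adjusted p = 0.0471). For these 4 genes the TAC libraries were all above the baseline libraries. The model had already called them for TAC, so this order adds no support, and its share among all genes was not counted. The same holds for the order of libraries given below for Rpl12, Rpl30 and Rpl3l. Rps28 was called in the cKO pair alone, at 3.03-fold (interval 2.24 to 4.16).

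Other 40S genes were called higher in the CT pair, with lower ratios in the cKO pair. Rps27, a zinc finger protein, had 6.67 CPM in CT baseline against 32.9 in CT TAC, and 23.2 in cKO baseline against 36.4 in cKO TAC. CT baseline was the low library, from 18 reads, and the ratio under TAC was 4.94 in CT (interval 2.90 to 8.84) and 1.57 in cKO (1.04 to 2.40). Rps4x, encoded on the X chromosome, had 91.9, 246, 144 and 203 CPM. Rps7, needed for maturation of 40S ribosomal RNA, had 56.7, 137, 78.3 and 84.8 CPM. For Rps4x and Rps7 the CT TAC library was the highest of the 4, at 2.68- and 2.41-fold over CT baseline, and the cKO ratios were 1.41 and 1.08.

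The 40S genes called lower in CT TAC included Rps27a, Rps18 and Rps24. Rps27a, translated as a fusion of ubiquitin with the ribosomal protein, had 95.6 CPM in CT baseline against 21.0 in CT TAC, and 149 in cKO baseline against 70.2 in cKO TAC. It was 0.219 times as high under TAC in CT (interval 0.154 to 0.305) and 0.470 times in cKO (0.377 to 0.584), and in the model it fell by 1.62 on the log2 scale (SE 0.26, limma adjusted p = 0.0127). Rps18, of the head of the subunit, had 139, 39.9, 64.2 and 64.2 CPM, so that CT baseline was high and both cKO libraries had the same level. Rps27a and Rps18 have 13 and 11 processed copies, and Rps24 is described with the genes that moved opposite ways.

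Among the 60S genes Rpl12, at the base of the stalk, had 55.2 CPM in CT baseline against 222 in CT TAC, and 83.8 in cKO baseline against 176 in cKO TAC. It was 4.01-fold higher under TAC in CT (interval 3.33 to 4.86) and 2.10-fold in cKO (1.72 to 2.59), and it rose by a log2 of 1.53 in the model (SE 0.24, limma adjusted p = 0.0101). Rpl30 had 74.5, 16.5, 41 and 20.1 CPM in the same order and fell by 1.58 on the log2 scale (SE 0.31, limma adjusted p = 0.0312). Both TAC libraries lay below both baseline libraries for Rpl30, and above them for Rpl12. The cKO ratio of Rpl30 (log2 -1.01) missed the 2-fold rule with 3 reads added (-0.98).

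Rpl35, at the rim of the exit tunnel, was highest in CT TAC, at 463 CPM, against 205 in CT baseline, 237 in cKO baseline and 333 in cKO TAC. Rpl13a, known also as a regulator of inflammatory mRNA translation, had 80.4 CPM in CT baseline against 179 in CT TAC, and 87.5 in cKO baseline against 123 in cKO TAC. Both genes were called higher in CT (2.26-fold, interval 2.03 to 2.52, and 2.22-fold, interval 1.87 to 2.64), and each was 1.41-fold higher in cKO. Rpl39, another exit tunnel protein, was called in cKO, at 22.6 CPM in cKO baseline and 47.9 in cKO TAC, and had 20.4 CPM in CT baseline and 35.9 in CT TAC. Rpl9 had 86.4 CPM in CT baseline against 39.9 in CT TAC, and 25.7 in cKO baseline against 23.4 in cKO TAC, and was called lower in CT.

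The stalk genes had unequal ratios. Rplp0 had 1020 CPM in CT baseline against 1250 in CT TAC, and 957 in cKO baseline against 1090 in cKO TAC, which is 1.23-fold under TAC in CT and 1.14-fold in cKO. Rplp1 had 54.9, 120, 74.6 and 116 CPM and was called higher in CT (2.19-fold, interval 1.78 to 2.71). Rplp2, its partner in the stalk dimer, had 77.1, 70.9, 85.0 and 71.2 CPM, and its intervals included 1 in every pair. Rplp1 has 8 processed copies and Rplp2 has none.

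Rpl3l was the member without processed copies that moved most. Rpl3l is made in heart and skeletal muscle and fills the position of Rpl3, beside the peptidyl transferase centre. Its level was 369 CPM in CT baseline against 169 in CT TAC, and 255 in cKO baseline against 140 in cKO TAC, so both baseline libraries lay above both TAC libraries. It was 0.460 times as high under TAC in CT (interval 0.406 to 0.521) and 0.549 times in cKO (0.468 to 0.643), and it fell by 0.99 on the log2 scale in the model (SE 0.18, limma adjusted p = 0.0222). Its reads include parts of reads (994.5 in CT baseline), and how these arose is not given in the sources used here.

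Rpl3 went the other way, with 40.8 CPM in CT baseline against 84.9 in CT TAC, and 92.4 in cKO baseline against 103 in cKO TAC, and CT baseline was the low library. It was 2.08-fold higher under TAC in CT (interval 1.63 to 2.67) and 1.11-fold in cKO (0.894 to 1.39), and it has 21 processed copies. Their coding lengths are close (1221 and 1209 bases), and a ratio within a library does not depend on library scaling. In the deposited values, which hold 1 added read, the ratio of Rpl3l to Rpl3 was 8.95 in CT baseline (interval from the reads without it 7.42 to 11.1) against 1.99 in CT TAC (1.66 to 2.42), and 2.75 in cKO baseline (2.28 to 3.34) against 1.36 in cKO TAC (1.12 to 1.65). The log2 ratio fell by 2.17 under TAC in CT (interval -2.56 to -1.79) and by 1.02 in cKO (-1.40 to -0.64). At baseline it was lower in cKO than in CT, at -1.71 (-2.10 to -1.32).

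**Figure D4:**
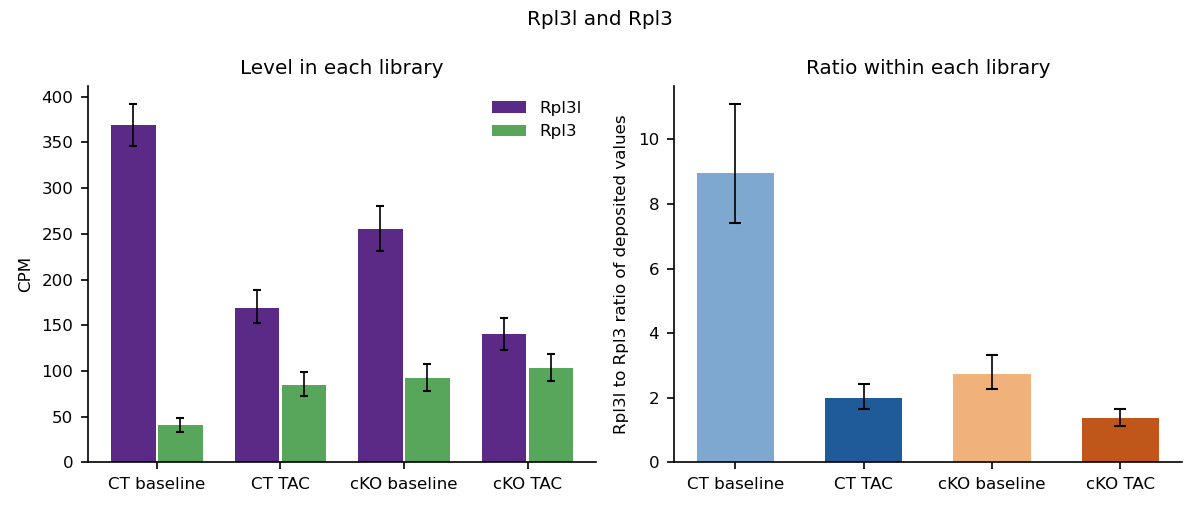
Left, CPM of Rpl3l and Rpl3 in each library. Right, ratio of the deposited values of Rpl3l and Rpl3 in the same libraries. Bars are single libraries and error bars are 95% counting intervals. Rpl3l was lower in both TAC libraries and the ratio went from 8.95 in CT baseline to 1.36 in cKO TAC.

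Most fibroblast markers were higher in the TAC library of each genotype, where the ratio of Rpl3l to Rpl3 was lower. For cKO against CT, 11 of 13 were higher at baseline and 6 of 13 under TAC (median log2 ratio -0.05). The log2 ratio of Rpl3l to Rpl3 differed by -0.55 (interval -0.93 to -0.17) between cKO TAC and CT TAC. All 13 of the 13 were listed, and their summed level was 4010 CPM in CT baseline against 8200 in CT TAC, and 5610 in cKO baseline against 9630 in cKO TAC, with 12 of 13 higher under TAC in CT and 10 of 13 in cKO. Macrophage markers (13 of 14 listed) summed to 463, 760, 1050 and 972 CPM in the same order. Endothelial markers (12 of 12) summed to 3050, 3770, 2340 and 3920 CPM and smooth muscle and pericyte markers (9 of 9) to 1130, 808, 1380 and 1140. Of 14 lymphocyte markers 3 were listed, at a sum of at most 17.7 CPM, and 5 of 8 erythroid markers were listed, at 2160, 1450, 3100 and 4430 CPM, where the rows Hbb-bs and Hbb-b1 hold the same values, as do Hbb-bt and Hbb-b2. The part of these cells in the levels of ribosomal protein genes was not tested.

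Of the other paralogue pairs, the ratio of Rps27l to Rps27 was lower in the TAC library than in the baseline library of both genotypes. Rps27l, the p53-inducible paralogue, had 41.5 CPM in CT baseline against 65.4 in CT TAC, and 74.3 in cKO baseline against 53.8 in cKO TAC. This ratio was 5.87 (interval 3.76 to 10.9), 1.97 (1.47 to 2.71), 3.15 (2.20 to 4.71) and 1.47 (1.07 to 2.05) in the same order, and under TAC in CT Rps27, which has 9 processed copies, had the larger TAC to baseline ratio (4.94 against 1.58 for Rps27l). The ratio of Rpl7l1 to Rpl7 was 0.205 (interval 0.164 to 0.25) in CT baseline against 0.102 (0.0764 to 0.130) in CT TAC, and 0.103 (0.0712 to 0.140) in cKO baseline against 0.0664 (0.0469 to 0.0885) in cKO TAC. Rpl7 had 202, 318, 242 and 367 CPM in these libraries and Rpl7l1, its paralogue, 41.1, 31.9, 24.5 and 23.9.

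The balance of Rpl22 and Rpl22l1 was not seen to shift. Rpl22 had 139 CPM in CT baseline against 295 in CT TAC, and 196 in cKO baseline against 194 in cKO TAC, with parts of reads, and Rpl22l1 had 20, 46.9, 39.1 and 31.5 CPM. Both were called higher in the CT pair, and their ratio of 0.147, 0.161, 0.202 and 0.165 did not differ beyond counting error in any pair, with a log2 change under TAC of 0.14 in CT (interval -0.37 to 0.66) and -0.30 in cKO (-0.85 to 0.26). Rpl32l had 24.1, 75.4, 22 and 68.0 CPM and rose by 1.62 (SE 0.24, limma adjusted p = 0.00769), while Rpl32 had 154, 153, 284 and 200 CPM. The copies of Rpl32 that were found, Rpl32l among them, were at most 96% identical to it over the aligned part, and both rows hold whole reads. Reads may still be exchanged between such rows, so the value of Rpl32l is uncertain.

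A few members moved opposite ways under TAC in the CT and cKO pairs. Intervals excluded 1 in opposite directions for 4 genes (4.94% of members, against 1.85% of all genes): Rps24, Rpl27, Rps6 and Rps27l. Rps24, needed for the maturation of small-subunit RNA and holding parts of reads, had 534 CPM in CT baseline against 237 in CT TAC, and 348 in cKO baseline against 722 in cKO TAC. It was 0.444 times as high under TAC in CT (interval 0.399 to 0.492) and 2.07-fold higher in cKO (1.87 to 2.29). A processed copy of Rps24, Gm4832, is listed as a gene of its own. Reads may be exchanged between these rows, so the values of Rps24 are uncertain. Rpl27, mutated in some families with Diamond-Blackfan anaemia, had 81.5, 153, 71.0 and 26.6 CPM, with the lowest level in cKO TAC. Its ratio was 1.87 in CT (interval 1.57 to 2.24) and 0.376 in cKO (0.263 to 0.529). Rps6, the target of the S6 kinases, had 55.2, 91.3, 110 and 85.9 CPM and was called in no pair.

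Rpl36 was called lower in cKO TAC as well, at 46.3, 55.9, 37.3 and 17.4 CPM. Rpl7a was called higher there, at 14.8, 12.5, 10.4 and 26.1 CPM from 17 to 48 reads, and has 74 processed copies. Rpl31 was lower under TAC in both genotypes without being called, at 143, 113, 266 and 150 CPM. The 27 members called in any of the 4 pairs (33.3%, against 19.5% of all genes) were 1 of the 10 with at most 2 copies (Rpl3l), 10 of the 34 with 3 to 9, 15 of the 36 with 10 or more, and Rpl32l.

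Between genotypes fewer members, and fewer of all genes, were called than under TAC in CT. In the library labelled cKO baseline against CT baseline, 4 members (4.94%) were called higher, where 3.26% of all genes were, and 2 (2.47%) lower, where 1.81% were, which is near the share of all genes. The median log2 ratio was 0.15, against 0.00 over all genes. Of 81 members, 59 (72.8%) lay above 0, against 50.3% of all genes. Counting intervals lay above 1 for 29 members (35.8%, against 9.19% of all genes) and under 1 for 8 (9.88%, against 10.4%). With libraries scaled to total reads this median was 0.25, and the one under TAC was 0.13. Rpsa (2.17-fold, interval 1.83 to 2.58), Rpl3 (2.27-fold, 1.76 to 2.92), Rps27 (3.48-fold, 1.94 to 6.48) and Rpl17 (2.33-fold, 1.20 to 4.62) were called higher. Rpl17 had 6.30 CPM in CT baseline and 14.7 in cKO baseline, from 17 and 24 reads, and has 50 processed copies. Rpl9 (0.297-fold, 0.209 to 0.415) and Rps18 (0.463-fold, 0.369 to 0.577) were called lower. Short of the 2-fold rule, Rps6 and Rpl22l1 had log2 ratios of 0.99 and 0.95, and Rps28, Rpl30 and Rpl7l1 of -0.93, -0.85 and -0.74. The comparisons share the CT baseline library with the CT TAC pair, in which Rpl3, Rps27 and Rpsa were also called higher and Rpl9 and Rps18 lower.

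In the library labelled cKO TAC against CT TAC, 5 members (6.17%) were called higher, where 2.93% of all genes were, and 2 (2.47%) lower, where 2.08% were, and the median log2 ratio was 0.03, against 0.01 over all genes and -0.11 among the 10 members with at most 2 copies. Intervals lay above 1 for 18 members (22.2%, against 9.49% of all genes) and under 1 for 20 (24.7%, against 11.1%). Rps27a was 3.35-fold higher (interval 2.35 to 4.86), Rps24 3.04-fold (2.74 to 3.39), Rpl7a 2.09-fold (1.26 to 3.54) and Rpsa 2.05-fold (1.84 to 2.29). With 3 reads added the ratio of Rpl7a missed the rule (log2 0.98). Rpl29 rested on 2 reads against 10, a ratio of 5.45 (interval 1.16 to 51.1). Rpl27 was 0.174 times as high (0.126 to 0.236) and Rpl36 0.311 times (0.203 to 0.465). Of members short of the rule, Rps21 had a log2 ratio of -0.74 and Rpl36a of 0.88. Rps21 had 107 CPM in CT TAC and 63.6 in cKO TAC. The additive limma model called no member for genotype and 3 of the 12408 genes (0.0242%), while 17 members (21.0%) and 7.77% of all genes had an unadjusted p under 0.05. The member nearest to a call was Rpsa, at a limma adjusted p of 0.093.

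**Figure D5:**
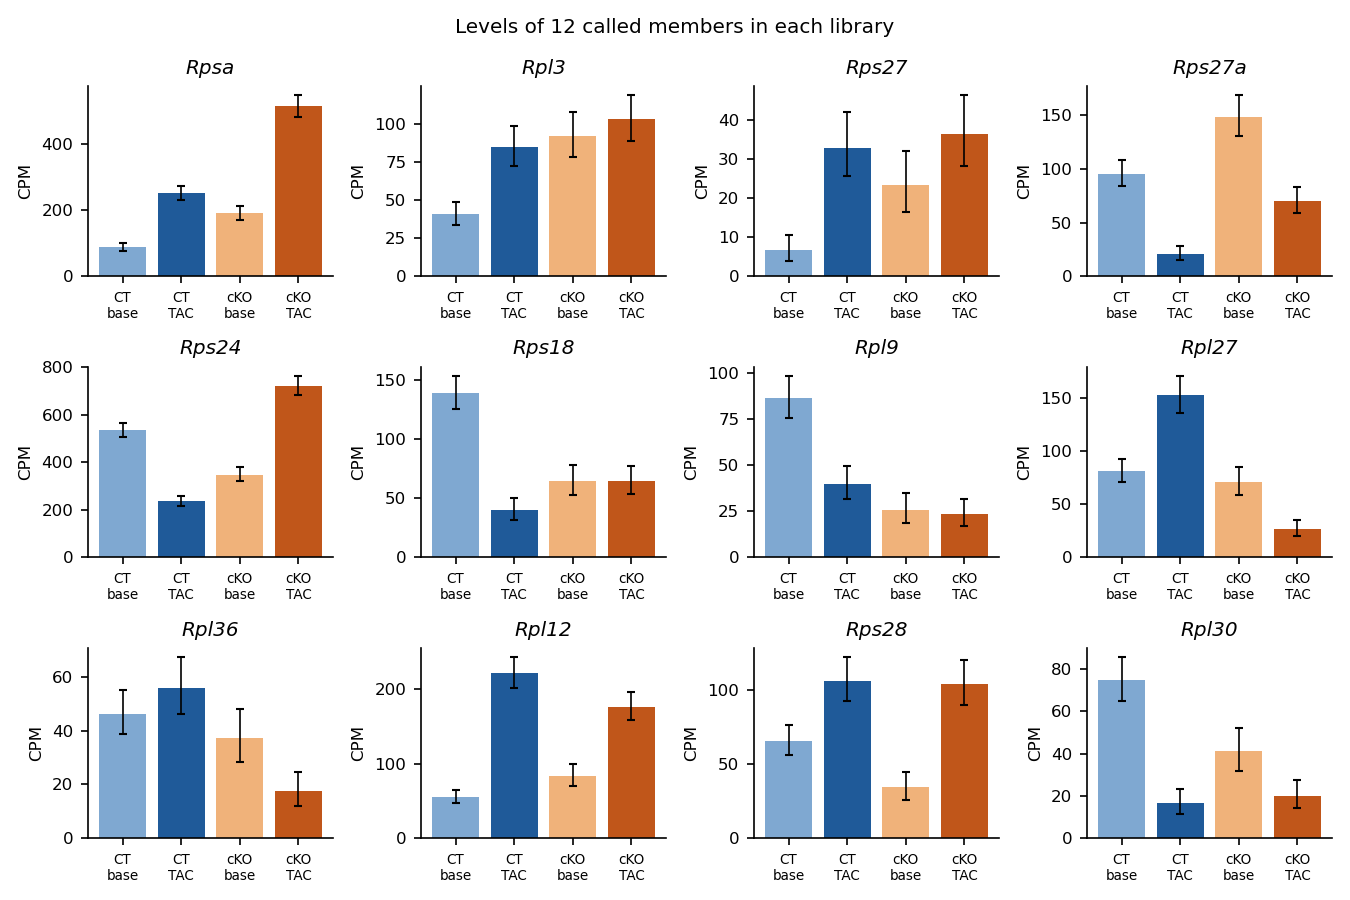
CPM of 12 members called in at least 1 pair, in each library (x). Bars are single libraries and error bars are exact Poisson 95% counting intervals. Rpsa was highest in cKO TAC, at 516 CPM, and Rpl27 lowest there, at 26.6 CPM, while CT baseline stood apart as the high library for Rps18 and Rpl9 and the low one for Rps27 and Rpl3.

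The symbol rule does not match every gene of a ribosomal protein. Rack1, a scaffold on the 40S subunit, had 707 CPM in CT baseline against 1290 in CT TAC, and 743 in cKO baseline against 1050 in cKO TAC, and was called in no pair. Fau, whose product is a fusion with a 40S protein, had 60, 43.4, 45.9 and 76.7 CPM and was not called. The ratio of the paralogue Rpl36al to Rpl36a was 4.81, 7.07, 3.73 and 5.01, and none of its changes exceeded counting error.

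Genes that build ribosomes were called under TAC at a lower share than all genes. Of 96 genes for ribosomal RNA synthesis, processing and assembly, 1 (1.04%, against 6.06% of all genes) was called higher under TAC in CT. It was Polr1e, a subunit of RNA polymerase I, at a log2 ratio of 1.47. None was called lower (against 4.68% of all genes), and the median was 0.09. In cKO none of the 96 was called higher (against 3.71%) and 1 (1.04%, against 2.83%) lower, with a median of -0.08. It was Ppan, at the 2-fold line (-1.0) from 24 reads in cKO baseline and 13 in cKO TAC. In cKO baseline against CT baseline 68 of the 96 (70.8%, against 50.3% of all genes) lay above 0, with a median of 0.19. Polr1e (1.19) and Nhp2l1 (2.27, from 1 and 6 reads) were called higher there (2.08%, against 3.26% of all genes). In cKO TAC against CT TAC, Taf1d was called higher (1.58, from 37.5 against 13 reads) and Ddx10 lower (-1.10, from 24 against 57 reads). The median was 0.04. Each is 1.04% of the 96, against 2.93% and 2.08% of all genes. Of 19 translation genes whose mRNAs are known for a pyrimidine start, which was not checked here, 1 is also on the assembly list (Npm1). Among the 19, Pabpc1, the poly(A)-binding protein, was called higher in CT (1.07), which is 5.26% against 6.06% of all genes. No other gene of the 19 was called in either TAC pair, with medians of 0.14 in CT and 0.03 in cKO. Of 27 regulators of the Myc and mTOR axis, Mnt was called lower under TAC in CT, which is 3.7% against 4.68% of all genes. Mnt lay at the 2-fold line (-1.0) from 31 reads in CT baseline and 11 in CT TAC. Ddit4, an inhibitor of mTOR complex signalling, was called higher under TAC in cKO (1.03), which is 3.7% against 3.71%. Ddit4 and Akt1s1 were called lower in cKO baseline against CT baseline (-1.51 and -1.21), which is 7.41% of the 27, against 1.81% of all genes. None of 13 chaperone and surveillance genes of free ribosomal proteins was called in a pair.

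The 77 genes of the mitochondrial ribosome had medians of 0.14 and 0.05 under TAC in CT and cKO, and of -0.11 and -0.18 for cKO against CT at baseline and under TAC. Of these genes 2 (2.6%, against 6.06% of all genes) were called higher and 1 (1.3%, against 4.68%) lower under TAC in CT. In cKO 2 (2.6%, against 2.83%) were called lower under TAC. For cKO against CT, 1 (1.3%, against 1.81% of all genes) was called lower at baseline and 3 (3.9%, against 2.08%) under TAC. Limma called none of them for TAC or genotype. An unadjusted p under 0.05 was found for 9 of the 77 for TAC (11.7%, against 16.2% of all genes) and 11 for genotype (14.3%, against 7.77%). Limma called none of the 96 assembly genes either, of which 8 (8.33%) and 2 (2.08%) had such a p. It also called no gene of the translation, regulator and chaperone lists. Of these, 3 (15.8%), 3 (11.1%) and 1 (7.69%) had such a p for TAC, and 3 (15.8%), 7 (25.9%) and 1 (7.69%) for genotype. The 7 regulators are 25.9% of their list, against 7.77% of all genes.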

How the data were processed

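RNA was sequenced from 4 mouse hearts, 1 library per group, by standard Illumina protocols per the labels. Per the submitters' processing notes, HISAT2, CASAVA, edgeR and build mm10 were used, with no versions or roles. For the counter, the annotation and multi-mapping reads, the step is not given in the sources used here. Each deposited value is a log2 CPM to which the authors' processing added 1 scaled read, as read from the grid on which the values fall. Reads were recovered from that grid, and 5 of 81 members had parts of reads (tolerance 0.01).

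Log2 ratios and ratios of paralogues come from the deposited log2 values, which understates those of genes with few reads, while folds and Clopper-Pearson 95% intervals use the recovered reads without the added one. Changes of a paralogue ratio use those reads with 0.5 added and a normal approximation of the counting error. The test across all 12408 genes was limma 3.58.1 (R 4.3.3) with a trend and Benjamini-Hochberg adjustment. On simulated data it found 97.3 of 100 4-fold and 31.3 of 100 2-fold changes, with 11.3 false calls, averaged over 3 runs. The simulation set a coefficient of variation of 0.2 between mice, a spread that these libraries do not measure. Python 3.11.15 with pandas 2.3.3, numpy 2.4.6 and scipy 1.17.1 was used. Processed copies were found with BLAST 2.17.0 among 14212 pseudogene transcripts of GENCODE M21 (GRCm38, the same assembly as mm10). CPM per kb uses coding length.

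The text names paralogues, the called members, the 5 highest and 5 lowest of each pair with whole reads and at least 20 reads in both libraries, the stalk genes, Rpsa and Rps27a; Rpl4, Rps12, Rps2, Rps19, Rpl8, Rps3, Rpl21 and genes given as background were chosen after their values were seen. Some genes under this rule are not reported here. The members and lists were chosen with earlier results of these data known. The alternatives were other scalings, added reads, filters, fold thresholds and model terms.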

Additional observations from a re-analysis of the deposited data

Results flagged for a closer look

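Rpl27, Rps24 and Rps18 had ratios in opposite directions under the same contrast, from 1 mouse per group, and the differences were not tested. Rpl27 had a log2 ratio of TAC to baseline of 0.90 in CT and -1.40 in cKO, a difference of -2.30. Rps24 had -1.17 in CT and 1.05 in cKO, and for cKO against CT it had -0.62 at baseline and 1.60 under TAC, a difference of 2.22 in both views of the same 4 values. Rps18 had a log2 ratio of cKO to CT of -1.10 at baseline and 0.68 under TAC, a difference of 1.78. These genes have 12, 12 and 11 processed copies, and Rps24 has parts of reads and a copy, Gm4832, listed as a gene of its own. The part of the copies in these ratios was not tested.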

How the results depend on the processing

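With a 1.5-fold rule, 31 of 81 members were called higher and 11 lower under TAC in CT (11.4% and 9.82% of all genes), 13 and 8 in cKO (7.52% and 6.54%), 14 and 6 for cKO against CT at baseline (5.81% and 4.96%) and 9 and 9 under TAC (6.06% and 6.00%). Scaling to total reads moved the median genotype ratio to 0.25 at baseline and 0.13 under TAC. Among members with at most 2 copies, an alternative chosen after seeing the data, the median was 0.23 for TAC in CT and -0.11, reversed, for cKO against CT under TAC. In limma the members that rose for TAC numbered 0 without a trend, 1 without the genotype term, 4 with total reads, 3 with 3 reads added, 11 at a mean CPM of at least 5 and 12 at an adjusted p under 0.1. Those that fell numbered 0, 0 and 1 without a trend, without the genotype term and with 3 reads added. For genotype 1 member rose at an adjusted p under 0.1. The members' share of reads was 0.995%, 1.31%, 1.17% and 1.34% over members with whole reads, and 1.36%, 1.69%, 1.53% and 1.72% without the 10 genes with most reads. Rpl30 in cKO (-1.0 with total reads, -0.98 with 3 reads added) and Rpl7a for cKO against CT under TAC (0.98 with 3 reads added) missed the 2-fold rule. The cause of these moves was not tested. Without any 1 library the additive model has no residual degree of freedom. No paired analysis was possible because each group holds 1 mouse.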
